A study of Mus musculus with 7 samples.

Results

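The 10 genes described here are regulators of fat cell formation (Pparg, Cebpa, Cebpb, Cebpd and Klf15), genes of lipid uptake and binding (Fabp4, Lpl and Cd36) and genes of secreted adipocyte proteins (Adipoq and Cfd). They were taken by symbol from a table of 29955 gene rows, and all 10 symbols were found. RNA was sequenced from mouse embryonic fibroblasts of the C57BL/6 strain, the mesenchymal cells grown from mouse embryos. All 7 libraries came from cells labelled p53 KO, with no further change in 3 of them. In 2 libraries Mdm2 was also knocked out (p53Mdm2 KO), and in 2 the cells carried a C462A knock-in in Mdm2 (p53KO Mdm2(C462A) KI, below Mdm2 C462A). Mdm2 is the ubiquitin ligase that targets p53 for degradation, and the study's title asks what it does through the Polycomb repressor complex PRC2 without p53. The labels name no embryo age, passage, clone or treatment, and nothing says whether replicates were separate cultures, so the spread that p-values are set against may be technical.

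Fat cell formation runs through a cascade of transcription factors. The early factors C/EBPβ and C/EBPδ, encoded by Cebpb and Cebpd, switch on Pparg and Cebpa, whose products then maintain each other and the genes of the mature fat cell. Embryonic fibroblasts can enter this cascade when given adipogenic hormones, and the labels name no such hormone here. Levels are given as normalized reads, recovered from the deposited values as described with the processing, and library totals ran from 28468283 to 41453822 reads.

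One library stood apart over all tested genes, the described ones included. In p53 KO replicate 1, Thy1, a surface marker of fibroblasts, had 99.1 normalized reads against 6592 to 37385 in the other 6 libraries, and the collagen gene Col1a2 had 3456 against 175050 to 547553. Of the 16900 genes tested, 217 lay over 4-fold above and 598 over 4-fold below all other libraries in p53 KO replicate 1. In Mdm2 C462A replicate 2 these counts were 121 and 33, and in p53Mdm2 KO replicate 2 they were 10 and 87. The last of these libraries had the fewest reads of the 7 (28468283). For these counts 1 read-equivalent was added to each level. Counts or medians of some gene lists are therefore also given without p53 KO replicate 1 or Mdm2 C462A replicate 2. Not every count that moves is given, and no list was counted without p53Mdm2 KO replicate 2. All 10 fibroblast markers checked, among them Col1a1, Col1a2, Vim and Pdgfrb, were read in all 7 libraries, as the label MEF asks. In p53 KO replicate 1, 2 of these 10 (Thy1 and Col1a2) lay over 4-fold below all other libraries. There 3 were the lowest of the 7 libraries and 2 the highest. Their summed level there was 965947 normalized reads, inside the range of the other 6 (914190 to 2099520). In p53Mdm2 KO replicate 2, 6 of these 10 were the lowest of the 7 libraries, and Dcn lay over 4-fold below all others. Of the 5 regulators described here, 4 were lowest in that library, as were 2656 of all 16900 genes.

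Promoter sequence is shown for Pparg and Cebpa, which were high together in p53 KO replicate 1, and for Klf15, which was highest in Mdm2 C462A replicate 2. The sequences are RefSeq windows of build GRCm38.p6, the 250 bases before an annotated start on the + strand, and capitals mark every match to a searched motif. For Pparg the last of 3 annotated starts is shown, at chr6:115421816-115422065. The Cebpa window is chr7:35119043-35119292 and the Klf15 window chr6:90462326-90462575. RefSeq windows matched 7 of the 10 genes.
Pparg: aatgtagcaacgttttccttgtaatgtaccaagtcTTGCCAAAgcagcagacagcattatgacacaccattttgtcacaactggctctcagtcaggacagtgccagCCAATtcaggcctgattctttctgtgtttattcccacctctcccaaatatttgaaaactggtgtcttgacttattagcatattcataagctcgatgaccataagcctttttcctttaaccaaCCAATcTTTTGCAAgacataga
Cebpa: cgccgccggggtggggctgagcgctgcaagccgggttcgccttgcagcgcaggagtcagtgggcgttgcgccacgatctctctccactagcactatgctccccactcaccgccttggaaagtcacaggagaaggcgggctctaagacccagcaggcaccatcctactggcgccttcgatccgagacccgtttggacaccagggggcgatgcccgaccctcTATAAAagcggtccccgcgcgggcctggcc
Klf15: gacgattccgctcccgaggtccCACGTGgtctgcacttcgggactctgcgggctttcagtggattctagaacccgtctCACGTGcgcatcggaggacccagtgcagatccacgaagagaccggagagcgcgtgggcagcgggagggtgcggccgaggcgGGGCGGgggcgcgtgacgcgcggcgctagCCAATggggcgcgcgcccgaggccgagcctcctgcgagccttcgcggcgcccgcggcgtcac
The motifs were searched on both strands, and no 2 matches overlap in these 3 windows. The C/EBP motif TTGCNNAA matched the Pparg window at bases -215 to -208 and -16 to -9 before the start, and 9.56% of all 32851 windows hold it. The windows of the first 2 annotated Pparg starts held no match to it, and which start these cells use was not examined. CCAAT, present in 33.8% of windows, matched at -144 to -140 and -22 to -18 in Pparg and at -62 to -58 in Klf15. The Cebpa window held TATAAA at -30 to -25 (12.4% of windows). Klf15 held CACGTG at -228 to -223 and -172 to -167 (6.02% of windows) and GGGCGG at -91 to -86 (32.7%). The DR1 direct repeat bound by PPARγ with its partner RXR, found in 0.0335% of windows, and the palindromic glucocorticoid receptor motif, found in 0.0609%, had no match in any of these 3 windows. These matches describe the letters only.

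Pparg encodes PPARγ, the nuclear receptor on which fat cell formation depends. It had 3048, 103 and 87.4 normalized reads in p53 KO replicates 1, 2 and 3, 99.3 and 214 in the 2 p53Mdm2 KO libraries, and 67.2 and 264 in the 2 Mdm2 C462A libraries. The first p53 KO library was 11.6 times the highest of the other 6, and without it the 3 genotypes overlapped. Group levels were 1080 ± 1705 in p53 KO (SD, n = 3), 157 ± 80.9 in p53Mdm2 KO (n = 2) and 165 ± 139 in Mdm2 C462A (n = 2), so the p53 KO mean describes none of its libraries.

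Cebpa encodes C/EBPα, the partner of PPARγ in the mature fat cell. Its normalized reads were 803, 149 and 145 in p53 KO, 85.4 and 47.6 in p53Mdm2 KO and 84.2 and 143 in Mdm2 C462A. Again p53 KO replicate 1 was the high library, at 5.37 times the highest of the others. Each of the 4 Mdm2-mutant libraries lay below each p53 KO library, narrowly so for Mdm2 C462A replicate 2. Reads of Cebpa, Cebpb and Cebpd are not separated with certainty from genes annotated on the opposite strand over the same bases (Gm45091, Tmem189 and Spidr in GENCODE M21), because no strand setting is given.

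Cebpb, the early factor gene, had 1350, 842 and 947 normalized reads in p53 KO, 1508 and 660 in p53Mdm2 KO and 1901 and 3776 in Mdm2 C462A. Both Mdm2 C462A libraries lay above the other 5, and the p53Mdm2 KO libraries lay on either side of the p53 KO range. Cebpd had 890, 549 and 600 normalized reads in p53 KO, 1298 and 399 in p53Mdm2 KO and 1213 and 902 in Mdm2 C462A. Its Mdm2 C462A libraries lay just above p53 KO, and the highest and the lowest of all 7 libraries were both p53Mdm2 KO.

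Klf15 encodes a zinc-finger factor that acts in adipocyte differentiation and in the response to glucocorticoids. It had 147, 40.8 and 92.8 normalized reads in p53 KO, 124 and 37.3 in p53Mdm2 KO and 220 and 1026 in Mdm2 C462A. Mdm2 C462A replicate 2 was 4.67 times the next library, and replicate 1 was itself above the other 5. The 2 Mdm2 C462A libraries differed from each other 4.67-fold, and the levels in p53 KO and p53Mdm2 KO overlapped.

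Fabp4 encodes the fatty acid-binding protein of adipocytes, a classic target of PPARγ that macrophages and capillary endothelium also make. It had 4328, 174 and 161 normalized reads in p53 KO, 71.4 and 120 in p53Mdm2 KO and 141 and 97.0 in Mdm2 C462A. The first p53 KO library was 24.8 times the highest of the other 6, the widest such gap among the 10 genes. The other p53 KO libraries still lay above all 4 Mdm2-mutant libraries, at 168 ± 9.75 (SD, n = 2) against 95.6 ± 34.2 in p53Mdm2 KO (n = 2) and 119 ± 31.3 in Mdm2 C462A (n = 2).

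Lpl encodes lipoprotein lipase, the secreted enzyme that frees fatty acids from circulating triglyceride. It had 1066, 2720 and 2461 normalized reads in p53 KO, 4080 and 2485 in p53Mdm2 KO and 3385 and 2584 in Mdm2 C462A. Here p53 KO replicate 1 was the lowest library, at 0.433 times the lowest of the others, and the other 6 overlapped between genotypes. Lpl was thus low in the library in which Pparg, Cebpa and Fabp4 were high.

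**Figure D1:**
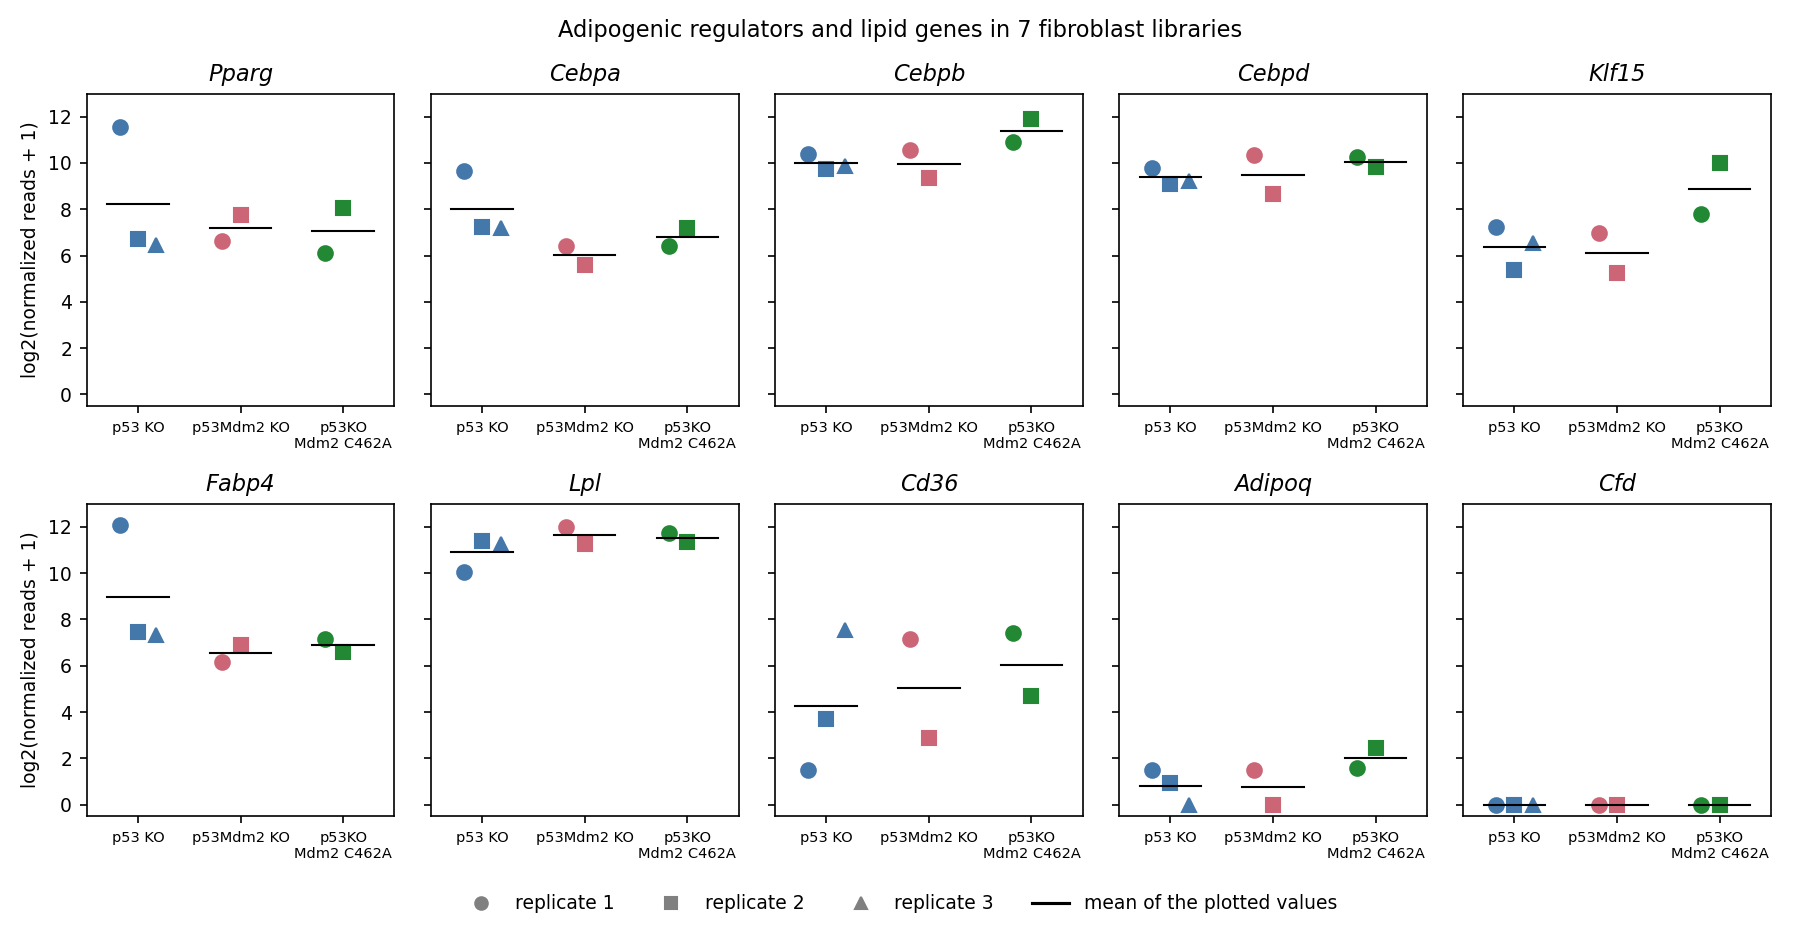
Level of each of the 10 genes in each library, as log2(normalized reads + 1) by genotype; symbols mark the replicate and bars the mean of the plotted values. Pparg, Cebpa and Fabp4 are far above the rest in p53 KO replicate 1, Klf15 is highest in Mdm2 C462A replicate 2, Cd36 is high in 1 library of each genotype, and Adipoq and Cfd are at or near 0 throughout.

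Cd36 encodes a fatty acid transporter and scavenger receptor of adipocytes and macrophages. It had 1.82, 12.1 and 183 normalized reads in p53 KO, 141 and 6.44 in p53Mdm2 KO and 168 and 24.7 in Mdm2 C462A. The high libraries were 1 of each genotype, p53 KO replicate 3, p53Mdm2 KO replicate 1 and Mdm2 C462A replicate 1. The summed level of 14 macrophage markers was also highest in those libraries, at 3912, 2001 and 1658 normalized reads, and lay between 433 and 612 in the other 4. By group that sum ran from 545 to 3912 in p53 KO, from 487 to 2001 in p53Mdm2 KO and from 433 to 1658 in Mdm2 C462A. Of the 14 markers, 10 (Ptprc, Emr1, Cd68, Cd14, Lyz2, Lyz1, C1qb, C1qc, Tyrobp and Fcer1g) were higher in each of these 3 libraries than in each of the other 4, a pattern that 3.85% of all tested genes share. Emr1, C1qb and Tyrobp had no read in p53 KO replicate 1, p53Mdm2 KO replicate 2 or Mdm2 C462A replicate 2. Macrophage markers thus moved with Cd36, and their part in its level was not tested. The pattern was not particular to macrophage markers. The fibroblast markers Pdgfra (10921 to 16430 in these 3 libraries, at most 6863 in the others), Pdgfrb and, narrowly, Thy1 shared it. The other fibroblast markers were not counted for it. In bulk RNA, fewer cells of a type and less RNA per cell cannot be told apart.

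**Figure D2:**
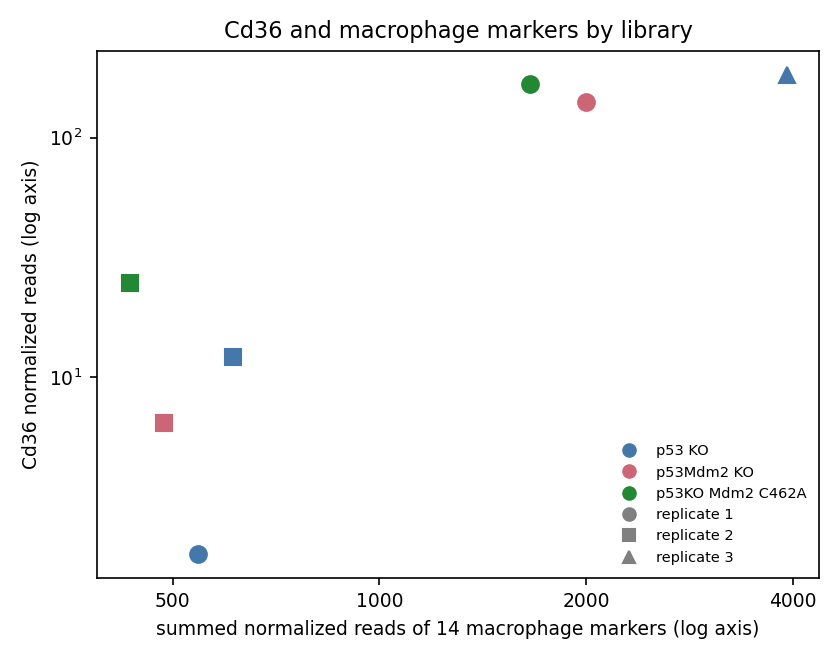
Normalized reads of Cd36 against the summed normalized reads of 14 macrophage markers in the 7 libraries, both on log axes; colour marks genotype and symbol the replicate. The 3 libraries with Cd36 between 141 and 183 are those with a marker sum of 1658 or more.

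Of the secreted adipocyte proteins, Adipoq (adiponectin) had 2, 1 and 0 reads in the p53 KO libraries, 2 and 0 in p53Mdm2 KO and 2 and 5 in Mdm2 C462A, or at most 4.41 normalized reads. Cfd (adipsin, complement factor D) had 0 reads in all 7 libraries, which allows up to 3 reads per library, or 2.65 to 3.86 normalized reads, for counting error only. It is 1 of 7180 rows without a read in any library, and whether its reads could be counted was not examined. Both genes were therefore left out of the tests, and no difference in them was detectable at this depth.

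Between genes, levels compare only per length, here per kilobase of the exons that GENCODE M21 annotates. On that scale the median over the 7 libraries was 897 normalized reads per kilobase for Cebpb, 628 for Lpl, 238 for Cebpd and 158 for Fabp4. Below them came Cebpa at 54.2, Klf15 at 45.1, Pparg at 43.3, Cd36 at 6.98 and Adipoq at 1.41. The neighbours Cebpa, Klf15 and Pparg did not differ beyond their spread over libraries. In p53 KO replicate 1 the order was another one: Fabp4 stood first with 4831 normalized reads per kilobase, and Pparg, at 1282, was above Cebpb, at 897.

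The comparison of p53Mdm2 KO with p53 KO asks what the loss of Mdm2 does without p53. None of the 8 genes tested passed the adjusted threshold in limma, and 0% of all 16900 genes did. At an unadjusted p under 0.05 there were 0 of these 8 and 507 of all genes (3%, of which 1.51% higher and 1.49% lower), and voom called 0 genes as well. Cebpa and Fabp4 were lower without overlap between groups, which 9.2% of all genes were. No gene of the 8 was higher without overlap, against 8.99% of all genes. For Cebpa the log2 difference was -1.77 (SE 0.748, unadjusted p = 0.0534, limma adjusted p = 1), and without p53 KO replicate 1 it was -0.998. Fabp4 differed by -2.25 on that scale (SE 1.36, limma adjusted p = 1), which was -0.74 without that library. The Pparg difference of -1.04 (SE 1.497) turned to 0.54 without it. Klf15 (-0.21), Cebpb (-0.04), Cebpd (0.12), Cd36 (0.41) and Lpl (0.72) had unadjusted p-values of 0.156 or more.

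The comparison of Mdm2 C462A with p53 KO asks the same for the substitution, and it shares the p53 KO libraries with the first. Cebpb and Klf15 were higher at an unadjusted p under 0.05, 2 of 8 genes against 4.98% of all genes in that direction. No gene of the 8 was lower at that level, against 5.44%, and 0% of all genes passed the adjusted threshold. In either direction 1761 of 16900 genes (10.4%) had an unadjusted p under 0.05, and voom called 0. Cebpb had 2839 ± 1325 normalized reads in Mdm2 C462A (SD, n = 2) against 1046 ± 268 in p53 KO (n = 3). In limma this was a difference of 1.37 (log2, SE 0.450) with unadjusted p = 0.0208 and adjusted p = 0.437. Klf15 had 623 ± 570 against 93.6 ± 53.2, which limma put at 2.27 (log2, SE 0.778) with unadjusted p = 0.0247 and adjusted p = 0.445. Without Mdm2 C462A replicate 2 these differences were 0.88 (unadjusted p = 0.146) and 1.21 (unadjusted p = 0.176) in the same limma fit. Cebpb, Cebpd and Klf15 were higher without overlap (14.1% of all genes), and Cebpa and Fabp4 lower without overlap (14.4%).

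The remaining differences from p53 KO had unadjusted p-values of 0.179 or more. On the log2 scale Cebpd differed by 0.64, Lpl by 0.61 and Cd36 by 0.99, while Pparg differed by -1.13, Cebpa by -1.13 and Fabp4 by -1.96. Without p53 KO replicate 1 the Pparg difference turned to 0.45, Cebpa had -0.36 and Fabp4 -0.45, and Lpl had 0.19. Without Mdm2 C462A replicate 1 the Cd36 difference turned to -0.077.

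Set directly against p53Mdm2 KO, Mdm2 C462A had higher values of Cebpb and Klf15, with no adjusted call. Their log2 differences were 1.40 (SE 0.493, unadjusted p = 0.027, limma adjusted p = 1) and 2.48 (SE 0.853, unadjusted p = 0.025, limma adjusted p = 1), and their groups did not overlap, as for 15.8% of all genes. These were the 2 of 8 genes with an unadjusted p under 0.05 on the higher side, against 1.2% of all genes, and 0 of 8 were lower, against 1.78%. In all, 503 of 16900 genes (2.98%) had an unadjusted p under 0.05, and 0% an adjusted one, with 0 calls by voom. Without Mdm2 C462A replicate 2 the differences were 0.91 for Cebpb (unadjusted p = 0.152) and 1.42 for Klf15 (unadjusted p = 0.142) in limma, so neither was under 0.05. The Cebpb difference was smallest, at 0.82, without p53Mdm2 KO replicate 2, which leaves 1 library in that group. No gene of the 8 was lower without overlap, against 17.1% of all genes. With all libraries, the other 6 differences lay between -0.11 (Lpl) and 0.64 (Cebpa).

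**Figure D3:**
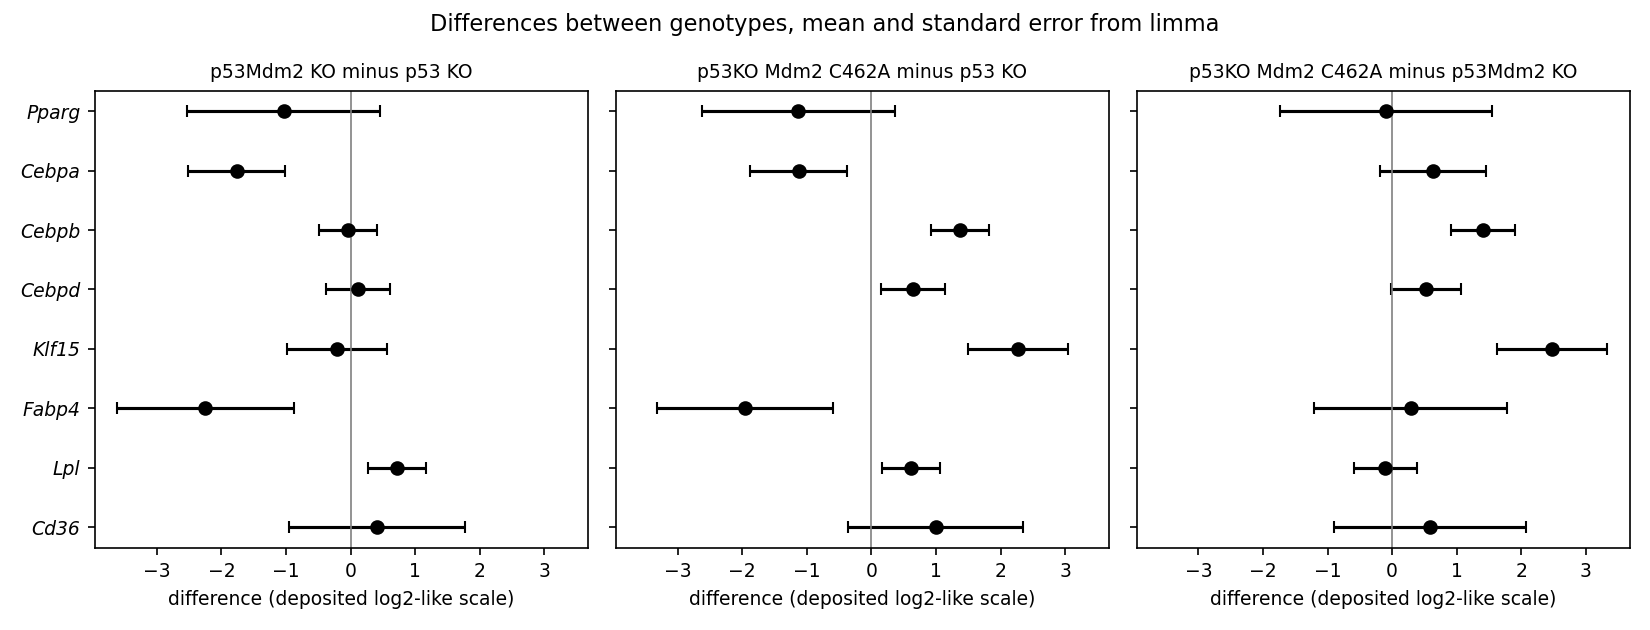
Difference between genotypes for the 8 tested genes on the deposited log2-like scale, with the standard error from limma (n = 3, 2 and 2 libraries). Cebpb and Klf15 lie above 0 in both comparisons of Mdm2 C462A, at 1.37 to 2.48, and the widest errors belong to Pparg, Fabp4 and Cd36.

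The wider receptor and C/EBP families were read against these genes. None of their members passed the adjusted test. Among the 6 listed PPAR and RXR genes, of which 5 were tested, was Rxra, the partner receptor of PPARγ, with 2713 ± 1140 normalized reads in p53 KO (n = 3), 1696 ± 286 in p53Mdm2 KO (n = 2) and 1664 ± 905 in Mdm2 C462A (n = 2). Ppard, the broadly expressed relative, had 1545 ± 606, 1132 ± 252 and 1318 ± 357. In p53 KO replicate 1, Rxra was 1.75 and Ppard 1.42 times the highest other library. In the C/EBP family, 4 of 5 tested genes were higher in Mdm2 C462A than in p53 KO, against 51.2% of all genes. The 4 include Cebpb and Cebpd, already described above, and the lower gene was Cebpa. The median log2 difference was 0.68, against 0.01 over all tested genes. Ddit3, which encodes the stress-induced C/EBP relative CHOP that blocks C/EBP dimers, was read at 1380 ± 346 in p53 KO (n = 3), at 3329 and 1530 in p53Mdm2 KO and at 3686 and 21317 in Mdm2 C462A, so that Mdm2 C462A replicate 1 lay near p53Mdm2 KO replicate 1. Cebpg had 1938 ± 356 in p53 KO, 2177 ± 623 in p53Mdm2 KO and 3146 ± 899 in Mdm2 C462A.

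Other activators of fat cell formation gave no adjusted call among 21 tested of 22. In p53Mdm2 KO 9 were higher and 12 lower than in p53 KO (median log2 difference -0.21, all genes -0.01), with 0 and 1 at an unadjusted p under 0.05. Without p53 KO replicate 1 these were 1 and 0, against 293 and 491 of all 16900 genes. In Mdm2 C462A 8 were higher and 13 lower (median -0.15), with 2 and 4 at that level, against 4.98% and 5.44% of all genes. Without Mdm2 C462A replicate 2, which leaves 1 library in that group, 9 were higher and 12 lower (median -0.06). Srebf1, a lipogenic factor gene, had 5126 ± 535, 5231 ± 1447 and 6218 ± 513 normalized reads in p53 KO, p53Mdm2 KO and Mdm2 C462A, and Igf1r, the receptor gene of insulin-like growth factor, 8334 ± 3311, 8231 ± 435 and 6962 ± 1810. Zfp423, a determination factor of preadipocytes, had 626 normalized reads in p53 KO replicate 1 against 11.6 to 61.1 elsewhere, and the liver X receptor gene Nr1h3 122 against 8.35 to 25.6. Ebf2, a factor of brown fat precursors, went the other way, with 0 reads in that library against 51.1 to 221.

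Inhibitors of fat cell formation likewise had 0 adjusted calls among 27 tested of 28. In p53Mdm2 KO 11 were higher and 16 lower than in p53 KO (median -0.05, and -0.23 without p53 KO replicate 1). In Mdm2 C462A 8 were higher and 19 lower (median -0.29), with 1 and 7 at an unadjusted p under 0.05, against 4.98% and 5.44% of all genes. Without p53 KO replicate 1 the 7 were 5 (median -0.57), while the lower genes among all 16900 rose from 920 to 1117. Without Mdm2 C462A replicate 2, which leaves 1 library in that group, 11 were higher and 16 lower (median -0.15). Yap1, a transcriptional coactivator gene of the Hippo pathway and among the most abundant of them, had 7911 ± 1161, 7294 ± 326 and 6924 ± 185 normalized reads in p53 KO (n = 3), p53Mdm2 KO (n = 2) and Mdm2 C462A (n = 2). Dlk1, the preadipocyte gene whose product holds back differentiation, had 171 normalized reads in p53 KO replicate 1 against 2698 to 8527 in the other 6. The members Dlk1, Zfp423 and Ebf2 were named for that library after their values were seen.

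Genes of the mature fat cell and targets of PPARγ did not follow Pparg as a group. Of 43 listed, 33 were tested and 0 passed the adjusted or the unadjusted threshold in p53Mdm2 KO or Mdm2 C462A against p53 KO (medians 0.19 and 0.12), where 3% and 10.4% of all genes had an unadjusted p under 0.05. Without p53 KO replicate 1 there were 3 (Plin4, Slc27a1 and Rbp4) and 5 at that level, with medians of 0.10 and 0.07. The counts over all 16900 genes rose too, from 507 and 1761 to 784 and 1988. Without Mdm2 C462A replicate 2 the Mdm2 C462A median was 0.32. In p53 KO replicate 1, 5 of the 33 were the highest of the 7 libraries and 14 the lowest, against 4750 and 4462 of all 16900 genes. Plin4, which coats lipid droplets, had 7032 normalized reads there against 101 to 367 elsewhere, 19.2 times the highest, and Gpd1, the glycerol phosphate enzyme of triglyceride synthesis, 173 against 5.01 to 26.5. The summed level of 10 adipocyte markers, which include Pparg, Cebpa and Fabp4, was 8387 normalized reads in that library against 447 to 704 in the others. Lipe, the hormone-sensitive lipase gene of that list, had 201 there, inside the range of the others. The remaining 6 markers were at or near 0 in all 7 libraries: in p53 KO replicate 1 Plin1 and Cfd had 0 normalized reads, Adipoq 1.82, Cidec 3.64 (at most 1.00 elsewhere), and Lep and Retn 0.909 each. The most abundant members were the lipogenic genes Fasn and Scd1, and Scd1 had 5136 normalized reads in p53 KO replicate 1 against 11079 to 29721 elsewhere. Of the 14 macrophage markers, 6 (Ptprc, Emr1, C1qa, C1qb, Tyrobp and Aif1) had no read in that library, while Itgam had 274, Csf1r 138 and Cd68 111 normalized reads, and the list sum was 545 against 433 to 3912 elsewhere. The endothelial marker Cldn5 had no read in any of the 7 libraries, and Cdh5 had none in p53 KO replicate 1 alone. What part these cell types have in the result was not tested. The summed level of 10 endothelial markers was 235 normalized reads there, the lowest of all 7 libraries, against 773 to 1278 in the others.

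**Figure D4:**
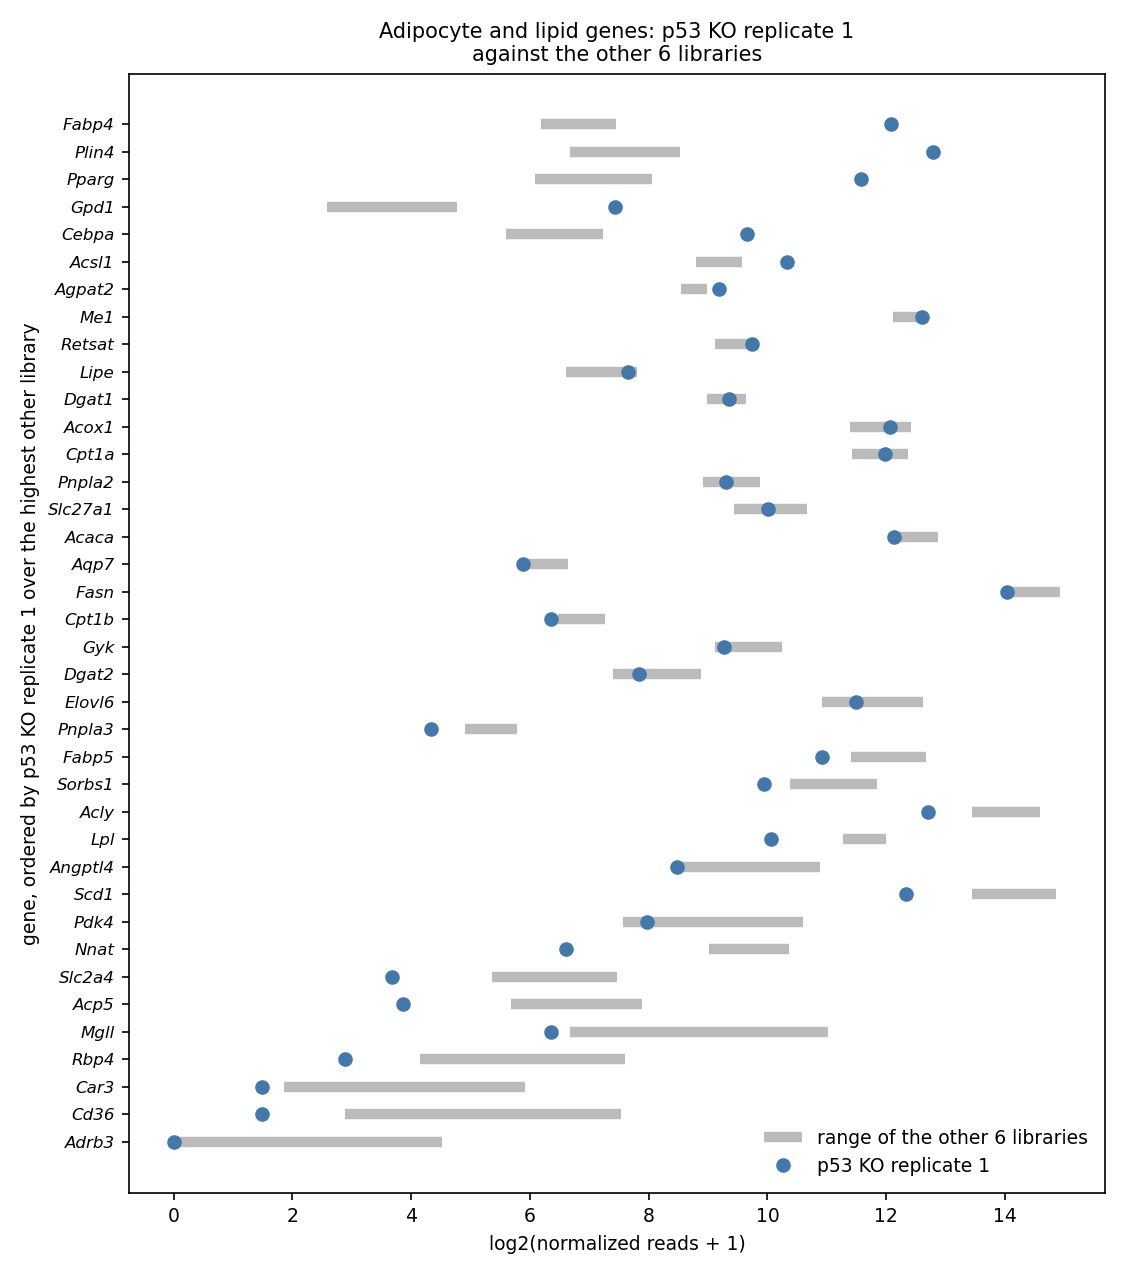
Level in p53 KO replicate 1 (points) and the range of the other 6 libraries (bars) as log2(normalized reads + 1), for Pparg, Cebpa, Fabp4, Lpl, Cd36 and the 33 tested genes of the mature adipocyte list. Fabp4, Plin4, Pparg, Gpd1 and Cebpa stand to the right of their ranges, while Lpl, Scd1, Acly and Nnat stand to the left.

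Partners and relatives of Lpl gave no adjusted call among 10 tested of 15. In p53Mdm2 KO 8 of 10 were higher than in p53 KO (median log2 difference 0.37), against 48.2% of all genes, and without p53 KO replicate 1 this was 5 of 10. In Mdm2 C462A 9 of 10 were higher (median 0.92), against 51.2% of all genes, 2 of them at an unadjusted p under 0.05, against 4.98%. These 2 were Lmf1, the maturation factor of lipoprotein lipase, with 901 ± 223 normalized reads in Mdm2 C462A (n = 2) against 451 ± 141 in p53 KO (n = 3), and Lipa, the lysosomal acid lipase gene, with 5768 ± 32.9 against 2963 ± 443. In limma the unadjusted p was 0.017 for Lmf1 and 0.0061 for Lipa, and the adjusted p was 0.437 for both. With Mdm2 C462A replicate 2 left out, Lmf1 no longer had an unadjusted p under 0.05. Sel1l, which acts in the maturation of the lipase in the endoplasmic reticulum, had 4273, 6736 and 9168 normalized reads in p53 KO and 8741 and 26700 in Mdm2 C462A, so only replicate 2 of the latter lay above the p53 KO range. Gpihbp1, the endothelial anchor of the lipase, had no read in any library. Lipg and Vldlr shared the low value of Lpl in p53 KO replicate 1, at 105 and 193 normalized reads against at least 837 and 942 elsewhere. Without that library the p53Mdm2 KO median was 0.07, and the Mdm2 C462A median was 0.78. Without Mdm2 C462A replicate 2 the latter was 0.76.

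Fatty acid binding and transport genes showed no common direction. Of 13 tested of 18, 7 were higher in p53Mdm2 KO (median 0.04) and 5 in Mdm2 C462A (median -0.15), against 48.2% and 51.2% of all genes. At an unadjusted p under 0.05 there were 0 of 13 in either, against 3% and 10.4% of all genes. The Mdm2 C462A count of higher genes turned to 8 of 13 without Mdm2 C462A replicate 2 (median 0.19). It was 7 of 13 without p53 KO replicate 1 (median 0.03). In the fit without p53 KO replicate 1, 3 had an unadjusted p under 0.05, as had 1988 of all 16900 genes. Fabp5, the epidermal relative of Fabp4, had 1927 normalized reads in p53 KO replicate 1 against 2722 to 6543 elsewhere, so the 2 family members were at opposite ends in that library. Fabp3, the heart form, had 151 against 479 to 935. Among lipid droplet coat genes, Plin2, the coat protein gene of non-adipose cells, had 3844 ± 328 normalized reads in p53Mdm2 KO (n = 2) against 2821 ± 444 in p53 KO (n = 3), with an unadjusted p = 0.0443 and a limma adjusted p = 1. Without p53 KO replicate 1, or without Mdm2 C462A replicate 2, Plin2 was not at an unadjusted p under 0.05. Plin3 had 2123 ± 805 against 1933 ± 213. Of the 6 tested droplet genes 2 were higher in p53Mdm2 KO (4 without p53 KO replicate 1), against 48.2% of all genes. In Mdm2 C462A 4 were higher, against 51.2% of all genes. That count was 5 without p53 KO replicate 1 and 3 without Mdm2 C462A replicate 2.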

How the data were processed

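Whole-transcript RNA libraries (TruSeq RNA kit, single reads of 50 bases, per the labels' protocols) of 7 samples were analysed, grouped by their titles. The submitters' processing notes name CASAVA 1.8.2, Bowtie2 2.1.0, DESeq 1.14.0 and build mm9 without their roles. The counting tool is not given in the sources used here, nor are annotation and strandedness. The deposited table holds variance-stabilized log2 values by the authors, with 3.36 for a gene without reads. Inverting the transformation from that value gave normalized reads, and dividing by 1 step per library gave whole reads, with 100% of the values above 0 within 0.05 of a whole number.

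The design had foreseen the deposited log2-like values, and 1 linear model with a mean per genotype was fitted to all 7 libraries in limma 3.58.1 under R 4.3.3, with its trended prior and 4 residual degrees of freedom. Testing was limited to 16900 genes averaging 10 normalized reads or more. P-values are two-sided and Benjamini-Hochberg adjusted over these genes, with a threshold of 0.05. Differences on this scale understate the change of genes with few reads. The members and lists were chosen with earlier results of these data known. Named genes are all 10 members and, from each other list, called genes or else the 2 most abundant; others were named after their values were seen, and 1 gene is not reported here. Simulated data with known changes served to test the model. Same-numbered replicates were checked for pairing. Exon lengths come from GENCODE M21 and promoters from RefSeq, both of GRCm38, so lengths are approximate for the deposited build. Alternatives covered scale, pseudocount, filter, scaling, variance model, sample weights, samples in the fit, a replicate block and leaving out libraries.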

Additional observations from a re-analysis of the deposited data

How the results depend on the processing

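Over 19 alternatives the count of called genes stayed at 0 in each comparison with 1 exception: with p53 KO replicate 1 and Mdm2 C462A replicate 2 both left out, 1 gene (Ifi202b, named after its value was seen) was called between p53Mdm2 KO and p53 KO. Leaving out 1 library at a time gave 0 to 0 calls in each comparison. A lone remaining library was assumed to vary like the others. None of the 24 differences of the 8 tested genes passed the adjusted threshold under any alternative (lowest adjusted p = 0.191), and 12 turned in direction under at least 1. Between p53Mdm2 KO and p53 KO, sample weights gave 0.28 for Pparg, 0.15 for Cebpb and 0.19 for Klf15. Leaving out both libraries gave 0.54, 0.16 and 0.13 for the same genes and -0.36 for Cd36. Cebpb also turned with scaling to library totals (0.011), upper-quartile scaling (0.026) and voom (0.039). Leaving out 1 library at a time, that comparison ranged from -1.88 to 0.54 for Pparg, -0.62 to 0.55 for Cebpb, -0.71 to 0.95 for Cebpd, -0.89 to 0.47 for Klf15 and -1.02 to 1.83 for Cd36. Between Mdm2 C462A and p53 KO, sample weights gave 0.19 for Pparg, and leaving out 1 library gave -1.99 to 0.45 for Pparg and -0.077 to 2.08 for Cd36. Between the Mdm2 mutants Lpl turned to 0.087 with both libraries left out. Leaving out 1 library gave -0.95 to 0.77 for Pparg, -0.31 to 1.35 for Cebpd, -0.025 to 0.59 for Fabp4, -0.46 to 0.25 for Lpl and -0.84 to 2.01 for Cd36. The cause was not tested. Voom moved the median of all genes between Mdm2 C462A and p53 KO from 0.01 to 0.12, and there the differences of Cebpb and Klf15 kept their direction under all 19 alternatives.

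The labels do not say whether same-numbered libraries share more than a number. Correlations of their deviations from the group means ran from -0.164 to 0.203, and not every library correlated best with its own number. In a group of 2 libraries the deviations mirror each other, so these values cannot show whether a batch was shared. With the replicate block 0 genes were called in each comparison, and 442, 1486 and 279 had an unadjusted p under 0.05. Few reads limit what can be said of Adipoq, Cfd and Cd36, which had fewer than 10 normalized reads in at least 2 libraries.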

Other observations

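Genes of heat-producing fat cells were mostly read at low levels. Of 14 listed, 7 were tested, and Ucp1, the uncoupling protein that defines brown fat, had at most 3.86 normalized reads in any library. Ppargc1a, the coactivator gene that drives mitochondrial programmes with PPARγ, had 25.4, 4.64 and 13 normalized reads in p53 KO, 13.9 and 14.2 in p53Mdm2 KO and 45.1 and 115 in Mdm2 C462A. Its Mdm2 C462A libraries were the 2 highest (unadjusted p = 0.00949, limma adjusted p = 0.437), and without Mdm2 C462A replicate 2 the unadjusted p was not under 0.05. Prdm16, a brown fat regulator gene, was highest in p53 KO replicate 1, at 1.54 times the next library.

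Some genes varied over the 7 libraries much as the described ones did, by the root mean square difference of centred log2-like values among 12859 genes with a mean of at least 100 normalized reads. Closest to Pparg was Epn3, an endocytic adaptor gene, at 0.24, with 1144 normalized reads in p53 KO replicate 1 and 8.02 to 48.5 elsewhere. Carns1 was closest to Fabp4 (0.40) and Pcdh10 to Cebpa (0.27). The collagenase gene Mmp13 was closest to Klf15 (0.18), with 801 normalized reads in Mdm2 C462A replicate 2 against 15.8 to 151 elsewhere. Pard6a was closest to Cebpb (0.20), H2-T9, which has similar relatives, to Cebpd (0.14), B4galt7 to Lpl (0.15) and Bmp3 to Cd36 (0.45). With 7 libraries, of which 1 or 2 set the pattern, such likeness is a description of these libraries.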
